A study of Homo sapiens with 15 samples.

Results

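The 10 genes DDIT4, DDIT4L, SESN1, SESN2, SESN3, RRAGC, RRAGD, FNIP1, RPTOR and DEPTOR were chosen by name, with earlier results of these data known. Shares of all genes set beside their counts are therefore a description. The genes are brakes of the kinase complex mTORC1, parts of the Rag GTPase machinery that recruits it, and the mTORC1 subunit RPTOR. They were 10 of the 17138 genes listed in the expression tables of MRC5 and H196 cells. All 10 were listed for MRC5 cells and 9 for H196 cells, where DDIT4L was not listed. All listed members passed edgeR's filter on low counts in the tests within a cell line. RRAGD passed it in MRC5 cells only through the group where it was high. MRC5 is a human lung fibroblast line, H196 a non-neuroendocrine (non-NE) line of small cell lung cancer (SCLC), and H69 a neuroendocrine (NE) SCLC line that served only as a partner. The 5 groups, of 3 libraries each after a week of culture, were MRC5_Mo and H196_Mo, the mono-cultures; MRC5_CoH69 and MRC5_CoH196, fibroblasts co-cultured with the line in the name; and H196_Co, tumor cells co-cultured with MRC5. In co-culture the partner sat on a porous transwell insert above the sequenced cells, so medium but not cell contact was shared. No group carried a drug, a transgene or a knockdown, each cell type was represented by 1 line, and nothing in the labels says that the 3 libraries of a group came from separate experiments, so p-values measure the spread between these libraries, which may be technical. The study's methods name different media for the fibroblasts and the tumor cells and do not state which was used in co-culture.

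mTORC1 is the kinase complex, built around MTOR and its substrate-binding subunit RPTOR, that drives protein and lipid synthesis when nutrients and growth factors suffice. Amino acids act through heterodimers of RRAGA or RRAGB with RRAGC or RRAGD, which bring mTORC1 to the lysosome, while growth factors act through RHEB, which the TSC complex holds off. DDIT4 (also called REDD1) and its relative DDIT4L act through TSC, the sestrins SESN1, SESN2 and SESN3 act on the GATOR complexes upstream of the Rag GTPases, DEPTOR binds MTOR directly, and FNIP1 with its partner FLCN sets the nucleotide state of RRAGC and RRAGD and through them the lysosomal factors TFEB and TFE3. DDIT4 is known as a target of HIF-1 and of ATF4, SESN2 of ATF4, SESN1 of p53, SESN3 of FOXO factors, and RRAGC, RRAGD and FNIP1 of the MiT/TFE factors.

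Libraries held 18476890 to 19170560 counts for MRC5 and 16073597 to 17358349 for H196, and a gene with no count can still hold 3 counts, or 0.156 to 0.162 CPM (counts scaled to a common library total) and 0.173 to 0.187 CPM, a limit that covers counting error only. All 10 fibroblast markers reached 1 CPM in every MRC5 group and summed to 21120 to 39890 CPM, with the lowest sums in MRC5_CoH196, against 2 of 10 and 35.8 to 47.0 CPM in H196 cells. Of 10 NE markers 3 reached 1 CPM in H196 cells, where INSM1 and SCGN were at 0 or not listed, and none did in MRC5 cells. Of 7 non-NE SCLC markers 6 reached 1 CPM in every group. The 7 summed to 5913 to 6809 CPM in H196 cells and to 9378 to 13560 CPM in MRC5 cells, where they were higher. Markers of H196 RNA (94 genes, RRAGD left out, that all H196 libraries held at 20 CPM or more and all MRC5_Mo libraries below 0.5 CPM) summed to 0.291% to 0.776% of their H196_Co level in MRC5_CoH196 libraries. The same sum was 0.107% to 0.133% in MRC5_CoH69, which the rule did not use, and 0.113% to 0.126% in MRC5_Mo, where the rule itself keeps it low. The part of these shifts in the results below was not tested unless a value is given there. A DEG is a gene with a Benjamini-Hochberg adjusted p under 0.05 in edgeR's quasi-likelihood test and an absolute log2 fold change above 0.58, and SE stands for standard error. The libraries are bulk RNA, so a change in the RNA of each cell and a change in which cells were present cannot be told apart.

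Of the 8 members with a promoter in the table used, DDIT4, RRAGC and FNIP1 held the letters of known binding motifs in the 250 bases before the start site. These 3 are shown because DDIT4 carries the core of the hypoxia response element, ACGTG, and the others carry the longer CACGTGAC typical of genes bound by MiT/TFE factors. The sequences are from RefSeq on GRCh38.p14, written 5′ to 3′ on the strand of the gene, with the motif in capitals. They lie at chr10:72273674-72273923 (plus strand) for DDIT4, chr1:38859773-38860022 (minus strand) for RRAGC and chr5:131797018-131797267 (minus strand) for FNIP1, in each case ending at the base before the start site, and had a GC content of 68.8%, 73.6% and 69.6%.
DDIT4: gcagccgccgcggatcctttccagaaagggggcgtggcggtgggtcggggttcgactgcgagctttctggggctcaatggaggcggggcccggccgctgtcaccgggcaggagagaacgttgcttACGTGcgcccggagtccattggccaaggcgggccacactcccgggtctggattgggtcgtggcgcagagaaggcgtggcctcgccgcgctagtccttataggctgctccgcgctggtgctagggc
RRAGC: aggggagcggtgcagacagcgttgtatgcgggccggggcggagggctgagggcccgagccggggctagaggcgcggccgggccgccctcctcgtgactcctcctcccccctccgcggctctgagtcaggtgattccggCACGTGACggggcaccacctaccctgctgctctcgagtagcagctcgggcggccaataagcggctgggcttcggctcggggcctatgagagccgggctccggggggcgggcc
FNIP1: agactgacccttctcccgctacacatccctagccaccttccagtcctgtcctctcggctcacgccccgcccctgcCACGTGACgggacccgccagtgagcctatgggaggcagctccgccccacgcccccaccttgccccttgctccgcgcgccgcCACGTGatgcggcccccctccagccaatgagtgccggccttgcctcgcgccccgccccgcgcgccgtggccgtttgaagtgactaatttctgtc
In DDIT4 the motif covers bases -125 to -121 counted from the start site. In RRAGC, CACGTGAC covers -112 to -105, and in FNIP1 it covers -175 to -168, with a second CACGTG at -94 to -89. Read on both strands, ACGTG occurs in 18.5% of 35116 such windows, CACGTG, which contains ACGTG on both strands, in 6.34%, and CACGTGAC, which contains CACGTG, in 2.16%. The ATF4-type motif TGATGCAA, found in 0.772% of windows, was in none of the members' windows. None of the 4 motifs occurred in the windows of DDIT4L, SESN1, SESN2, SESN3 or RPTOR, which says only that these letters are not in these windows, and RRAGD and DEPTOR had no window in the table used.

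The first question was how fibroblasts responded to the non-NE partner. In MRC5_CoH196 cells 5 of the 10 genes, DDIT4, RRAGD, FNIP1, SESN3 and RRAGC, were DEGs against MRC5_Mo and all 5 were higher, where 31.9% of the 12819 genes tested were DEGs and 17.2% were higher DEGs. The members had a median log2 fold change of 0.55, against -0.0030 for all genes tested. Without the fold limit 9 of 10 passed, where 74.3% of all genes did. For 9 of 10 the groups were separate in CPM scaled by the TMM factors, as for 75.5% of all genes. Each count of groups separate in CPM uses this scaling. Without it SESN1 overlapped, at 16.98 to 19.03 CPM in MRC5_Mo and 17.62 to 21.32 CPM in MRC5_CoH196. Of all genes 2207 were higher and 1885 lower DEGs, and on log2(FPKM + 1), where the median of all genes was -0.13, 915 were higher and 2082 lower. On log2(FPKM + 0.1) that median was -0.18. The fold changes below are relative to the TMM scaling.

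DDIT4 (gene ID 54541, chromosome 10, 72273924 to 72276873 in the tables' GRCh38.p13) was the member with the highest level and the best supported rise. It had 18.15, 17.37 and 14.94 FPKM (fragments scaled to gene length and library total) in MRC5_Mo libraries 1 to 3, and 84.80, 90.46 and 94.17 FPKM in MRC5_CoH196. The lowest co-culture library stood far above the highest mono-culture library. The log2 fold change was 2.59 (SE 0.062, adjusted p = 1.16e-21, edgeR), which ranked 135th of 12819 genes from the largest rise down. In FPKM the mean rose from 16.8 ± 1.67 (SD, n = 3) to 89.8 ± 4.72 (SD, n = 3), a difference of 73.0 with an SE of 2.89. At the highest share of H196 marker RNA found in a MRC5_CoH196 library, 0.776%, the H196_Co level of DDIT4 would amount to 2.03 FPKM.

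DDIT4L (115265, chromosome 4, 100185870 to 100190468), the less abundant relative, was not a DEG. Its FPKM was 2.11, 2.31 and 2.16 in MRC5_Mo and 2.45, 2.94 and 2.39 in MRC5_CoH196. The groups did not overlap, by a margin smaller than the spread within MRC5_CoH196. The log2 fold change of 0.41 (SE 0.12, adjusted p = 0.00372) was under the limit for a DEG. DDIT4L held 11.6% ± 1.12 (SD, n = 3) of the summed FPKM of the pair in MRC5_Mo and 2.81% ± 0.34 (SD, n = 3) in MRC5_CoH196, a fall by 2.18 of the log2 ratio (p = 0.1, two-sided exact permutation test, which can give no smaller p with 3 libraries per group).

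**Figure D1:**
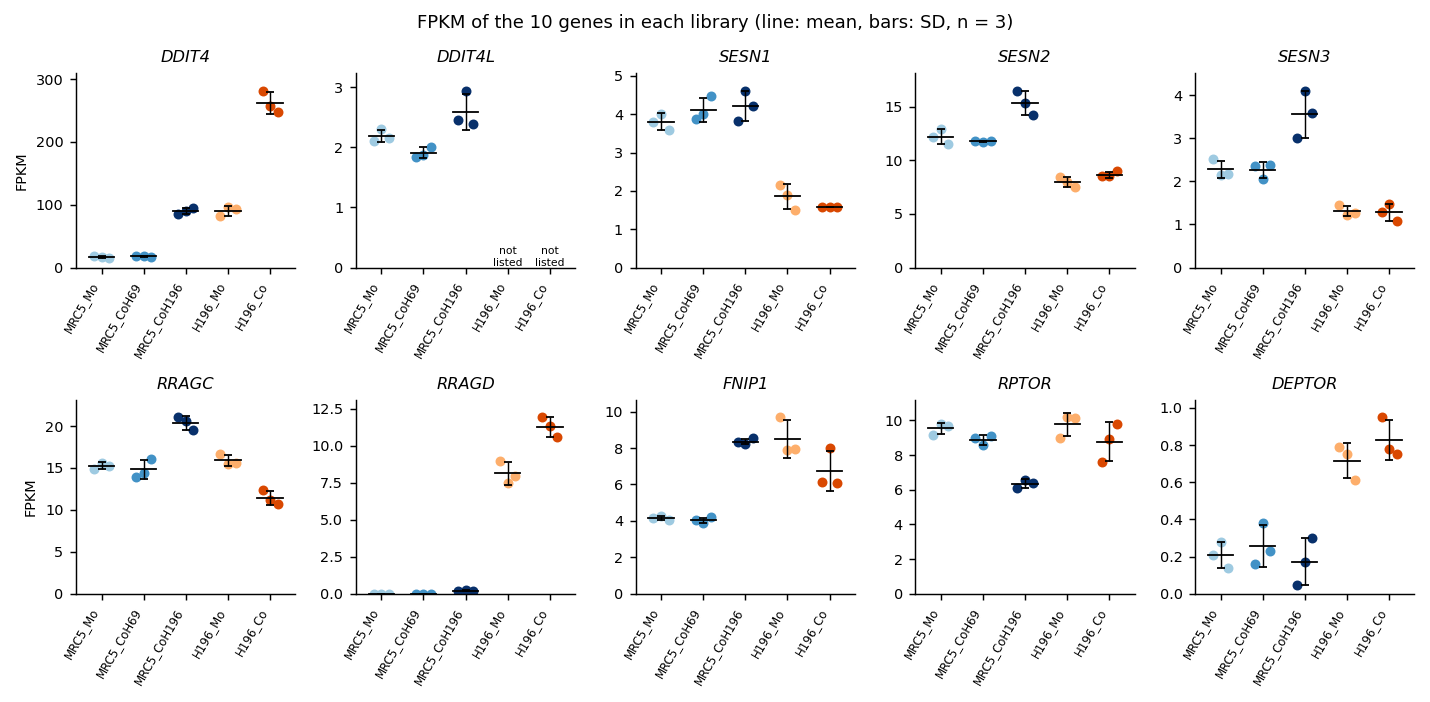
FPKM of each gene in each of the 15 libraries, with 1 panel per gene and a vertical axis from 0 that differs between panels; points are libraries, the horizontal line is the group mean and the bars are the SD (n = 3). DDIT4 stands at 84.80 to 94.17 in MRC5_CoH196 and 247.85 to 281.36 in H196_Co, RRAGD is near 0 in all MRC5 groups, and RRAGC is highest in MRC5_CoH196 and lowest in H196_Co.

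Of the 3 sestrins, SESN3 was a DEG in MRC5_CoH196 cells and SESN1 and SESN2 were not. SESN3 (143686, chromosome 11, 95165513 to 95232536), an inhibitor of mTORC1 in the FOXO response, had 2.51, 2.14 and 2.18 FPKM in MRC5_Mo and 3.01, 4.10 and 3.58 in MRC5_CoH196. All 3 co-culture libraries were above all 3 mono-culture libraries. The log2 fold change was 0.82 (SE 0.086, adjusted p = 4.56e-09), and 0.47 to 0.83 over the other settings, among them the FPKM scales.

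SESN2, the leucine-binding sestrin, was the most abundant of the 3 in every group. It had 12.13, 12.94 and 11.53 FPKM in MRC5_Mo and 16.46, 15.37 and 14.22 FPKM in MRC5_CoH196. The groups did not overlap, and the log2 fold change of 0.50 (SE 0.058, adjusted p = 2.73e-08) was under the limit for a DEG. SESN1 (27244, chromosome 6, 108984309 to 109094846), the p53-responsive sestrin, had 3.81, 4.02 and 3.58 FPKM in MRC5_Mo and 3.82, 4.61 and 4.21 FPKM in MRC5_CoH196. These FPKM values overlapped, and the log2 fold change was 0.29 (SE 0.076, adjusted p = 0.00137), also under the limit. In the tables' coordinates SESN1 overlaps ARMC2, and whether the counting used strand was not given in the sources used here. The tables set both genes on the plus strand, while the RefSeq promoter windows of SESN1 lie on the minus strand. The counts of SESN1 are uncertain to that extent.

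Summed over the 3 genes, sestrin FPKM was 18.3 ± 0.92 (SD, n = 3) in MRC5_Mo, 18.2 ± 0.47 in MRC5_CoH69 and 23.1 ± 1.05 in MRC5_CoH196. SESN2 held 66.7% ± 1.0 of it in MRC5_Mo and 66.4% ± 3.75 in MRC5_CoH196. The log2 ratio of SESN3 to SESN1 was higher by 0.49 and that of SESN2 to SESN1 by 0.19 in MRC5_CoH196 (two-sided exact permutation tests, p = 0.1 each, the smallest possible). The ratio of SESN2 to SESN1 also differed by -0.16 in MRC5_CoH69 against MRC5_Mo and by 0.34 in H196_Co against H196_Mo, each without overlap and with p = 0.1 in the same exact permutation test.

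Among the Rag GTPases, the abundant RRAGC and the nearly silent RRAGD were both higher in MRC5_CoH196 cells. RRAGC (64121, chromosome 1, 38838198 to 38859772) had 14.85, 15.65 and 15.26 FPKM in MRC5_Mo and 21.05, 20.63 and 19.49 in MRC5_CoH196. The groups were well apart. The log2 fold change of 0.59 (SE 0.056, adjusted p = 8.66e-10) passed the limit by little, and was 0.56 without MRC5_CoH196 replicate 1 and 0.57 without MRC5_Mo replicate 1, where RRAGC was no DEG. Over the other settings, among them the FPKM scales, it was 0.40 to 0.60, so the call depended on the setting.

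RRAGD (58528, chromosome 6, 89362146 to 89412273) had 2, 2 and 0 counts in MRC5_Mo, 0 in each MRC5_CoH69 library, and 18, 21 and 18 in MRC5_CoH196. Every MRC5_CoH196 library stood above every other MRC5 library, at a level of 0.20 to 0.25 FPKM. RRAGD passed the filter on low counts in MRC5 cells only through the MRC5_CoH196 libraries, so its calls there are a description. The summed counts, 57 against 4, gave a ratio of 14.1 per count total (95% exact interval 5.21 to 53.5, counting error only), and RRAGD was a DEG (edgeR, adjusted p = 5.51e-07). The 3 MRC5_CoH196 libraries held RRAGD at 1.78%, 2.15% and 1.77% of its mean H196_Co level. In the same libraries the 94 other markers of H196 RNA summed to 0.673%, 0.776% and 0.291% of theirs, and 9, 8 and 4 of the 94 were at or above the share of RRAGD. RRAGD itself meets the rule for such a marker, and the part of H196 RNA in its counts was not tested. Leaving RRAGD aside, 4 of the other 9 members were DEGs in MRC5_CoH196 cells.

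FNIP1 (96459, chromosome 5, 131641714 to 131797017), the partner of FLCN, had 4.16, 4.28 and 4.06 FPKM in MRC5_Mo and 8.32, 8.22 and 8.53 in MRC5_CoH196. Its libraries were tightly grouped on both sides of a wide gap. The log2 fold change was 1.18 (SE 0.054, adjusted p = 6.58e-16), and it ranked 728th of 12819 from the largest rise. FLCN, the GTPase-activating subunit of the complex, was also a higher DEG with a log2 fold change of 0.88 (SE 0.057, adjusted p = 6.34e-13), and the second adaptor FNIP2 had 0.53 (adjusted p = 3.29e-08), under the limit. The factors TFEB (-0.0030, adjusted p = 0.988), TFE3 (0.0099, 0.847) and MITF (0.031, 0.683) were not DEGs.

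RPTOR and DEPTOR, the members that sit in the mTOR complexes themselves, were not DEGs. RPTOR (57521, chromosome 17, 80544838 to 80966368) had 9.16, 9.78 and 9.68 FPKM in MRC5_Mo and 6.08, 6.58 and 6.38 in MRC5_CoH196. It was the 1 member with an adjusted p under 0.05 and a lower level, with a log2 fold change of -0.42 (SE 0.050, adjusted p = 5.71e-08), and on log2(FPKM + 0.1), where the median of all genes was -0.18, it was -0.58 and past the limit. RPTOR overlaps NPTX1 and LOC107985021 in the tables' coordinates. The tables set NPTX1 on the other strand, with the same doubt about strand as for SESN1. They set LOC107985021 on the strand of RPTOR, where counting by strand would not separate them. DEPTOR (64798, chromosome 8, 119867419 to 120055071) had 9, 12 and 6 counts in MRC5_Mo and 2, 7 and 13 in MRC5_CoH196. The groups overlapped, and at this depth no difference was detectable (log2 fold change -0.13, 95% interval -1.10 to 0.83, edgeR adjusted p = 0.814).

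**Figure D2:**
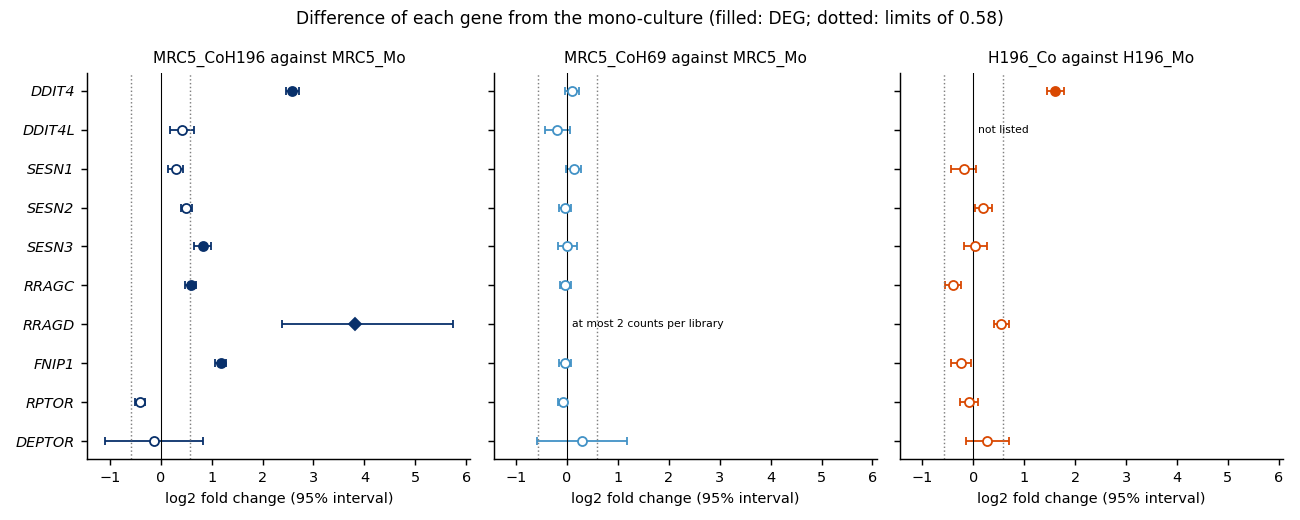
Log2 fold change of each gene (horizontal axis) against the mono-culture of the same line, with 95% intervals, in MRC5_CoH196, MRC5_CoH69 and H196_Co cells; filled points are DEGs, and the diamond of RRAGD is the ratio of summed counts, 57 against 4, with its counting interval. In MRC5_CoH196 the filled points are DDIT4 at 2.59, FNIP1 at 1.18, SESN3 at 0.82, RRAGC at 0.59 and RRAGD, in H196_Co only DDIT4 at 1.61, and in MRC5_CoH69 none.

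With the NE partner H69, 0 of the 10 genes were DEGs in MRC5_CoH69 against MRC5_Mo cells by edgeR, DESeq2 or limma, where 0.554% of the 12819 genes were in edgeR (0.421% higher and 0.133% lower). None had an adjusted p under 0.05, as 6.7% of genes did, and 1 of 10, RRAGD with 0 counts against 4, had an unadjusted p under 0.05. The groups were separate in CPM for 2 of 10, against 25.7% of genes. The comparison shares the MRC5_Mo libraries with the one before. DDIT4 had 18.07, 18.75 and 16.99 FPKM in MRC5_CoH69, with a log2 fold change of 0.10 and a 95% interval from -0.042 to 0.24. FNIP1 had 4.04, 3.90 and 4.19 FPKM and a log2 fold change of -0.035 (95% interval -0.15 to 0.082). The 95% intervals of the 8 members other than DEPTOR and RRAGD lay between -0.44, the lower bound of DDIT4L, and 0.28, the upper bound of SESN1. That of DEPTOR, with 7 to 16 counts, ran from -0.58 to 1.17.

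Set against each other, the co-cultured fibroblasts differed in 6 members, all higher in MRC5_CoH196, where 28.2% of genes were DEGs and 15.2% higher DEGs. Without the fold limit 8 of 10 passed, against 72.3% of genes, and 8 of 10 were separate in CPM, against 73.1%. This comparison shares the MRC5_CoH196 libraries with the one above. DDIT4 had a log2 fold change of 2.49 (SE 0.061, adjusted p = 2.33e-21), FNIP1 1.21 (adjusted p = 5.22e-16), SESN3 0.81 (adjusted p = 6.14e-09) and RRAGC 0.62 (adjusted p = 4.32e-10). RRAGD, with no count in any MRC5_CoH69 library, was at least 6.30-fold higher on the limit of 3 counts per library. It passed the filter on low counts only through MRC5_CoH196. The remaining DEG was DDIT4L, with 1.84, 1.88 and 2.01 FPKM in MRC5_CoH69 and a log2 fold change of 0.60 (SE 0.12, adjusted p = 0.000125), which was 0.52 and no DEG without MRC5_CoH196 replicate 2. Over the other settings, among them the FPKM scales, SESN3 was 0.48 to 0.83, RRAGC 0.44 to 0.63 and DDIT4L 0.30 to 0.61. SESN2 had 0.54 (adjusted p = 9.13e-09) and became a DEG, at 0.60, without MRC5_CoH196 replicate 3. RPTOR had -0.33 (adjusted p = 2.89e-06), under the limit.

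The reverse question was how H196 tumor cells responded to fibroblasts. DDIT4 was the 1 DEG among the 9 members in H196_Co against H196_Mo cells, and it was higher, where 3.86% of the 12806 genes tested were DEGs and 3.26% were higher DEGs. The members' median log2 fold change was 0.034, against -0.0015 for all genes. Of the members, 3 of 9 passed without the fold limit, against 19.8% of genes, and 5 of 9 were separate in CPM, against 37.2%. Of these 5, DEPTOR overlapped without the TMM scaling, at 1.387 to 1.804 CPM in H196_Mo and 1.715 to 2.148 CPM in H196_Co. DDIT4 had 81.55, 96.48 and 93.39 FPKM in H196_Mo and 281.36, 256.65 and 247.85 in H196_Co. The groups were far apart, with a log2 fold change of 1.61 (SE 0.082, adjusted p = 1.70e-11), and the gene ranked 28th of 12806 from the largest rise. The mean rose by 171 FPKM (SE 11), beside 73.0 FPKM in fibroblasts. The mean of H196_Mo was 90.5 ± 7.88 FPKM and that of MRC5_CoH196 89.8 ± 4.72 FPKM (SD, n = 3), in tables that were normalized separately, so these levels were not tested against each other.

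RRAGC and RRAGD had fold changes of opposite sign in H196 cells, and neither was a DEG. RRAGD had 8.96, 7.49 and 7.96 FPKM in H196_Mo and 11.94, 11.33 and 10.61 in H196_Co, a log2 fold change of 0.55 (SE 0.080, adjusted p = 5.49e-05). RRAGC had 16.66, 15.47 and 15.58 FPKM in H196_Mo and 12.41, 11.19 and 10.72 in H196_Co, a log2 fold change of -0.40 (SE 0.082, adjusted p = 0.00197). For both genes the groups did not overlap, and both fold changes were under the limit of 0.58. RRAGD was a DEG without H196_Mo replicate 1 (0.61) or H196_Co replicate 3 (0.59), which made 2 members DEGs.

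The share of RRAGD in the summed FPKM of the pair was 33.8% ± 1.18 (SD, n = 3) in H196_Mo and 49.7% ± 0.64 (SD, n = 3) in H196_Co. The 3 H196_Co libraries lay between 49.0% and 50.3%, and those of H196_Mo between 32.6% and 35.0%. The log2 ratio of RRAGD to RRAGC was higher by 0.95 in H196_Co (two-sided exact permutation test, p = 0.1, the smallest possible). This ratio is taken within a library and does not depend on the scaling between libraries. In MRC5_CoH196 the share was 1.05% ± 0.13, in MRC5_Mo at most 0.135% and in MRC5_CoH69 RRAGD was listed at 0.

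**Figure D3:**
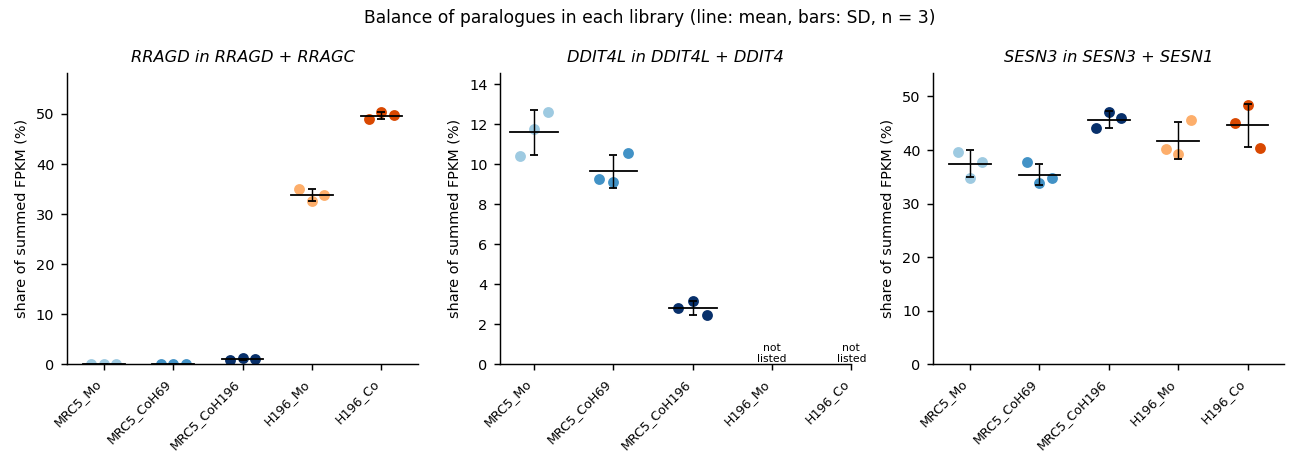
Share of the first gene in the summed FPKM of a pair of paralogs (vertical axis, percent, from 0) in each library; points are libraries, the line is the group mean and the bars are the SD (n = 3). The RRAGD share goes from 32.6% to 35.0% in H196_Mo to 49.0% to 50.3% in H196_Co, the DDIT4L share from 10.4% to 12.6% in MRC5_Mo to 2.48% to 3.15% in MRC5_CoH196, and the SESN3 share overlaps between the H196 groups.

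The other members in H196 cells had adjusted p-values above 0.05. FNIP1 had 9.69, 7.87 and 7.92 FPKM in H196_Mo and 6.13, 8.0 and 6.09 in H196_Co, where replicate 2 overlapped with the mono-culture in FPKM. Its log2 fold change was -0.24 (adjusted p = 0.0828), and -0.37 (adjusted p = 0.00551, under the fold limit) without that library. SESN2 had 8.48, 7.98 and 7.47 FPKM in H196_Mo and 8.51, 8.5 and 8.97 in H196_Co (log2 fold change 0.20, adjusted p = 0.0933). SESN1 had 2.16, 1.90 and 1.51 FPKM in H196_Mo and 1.57, 1.58 and 1.58 in H196_Co (-0.19, adjusted p = 0.304), so the mono-culture libraries reached below those of the co-culture. SESN3 had 1.23 to 1.45 FPKM in H196_Mo and 1.07 to 1.48 in H196_Co (0.034, adjusted p = 0.865), RPTOR 8.99 to 10.18 and 7.59 to 9.81 FPKM (-0.083, adjusted p = 0.541), and DEPTOR 24 to 30 and 29 to 37 counts (0.28, adjusted p = 0.400). Summed sestrin FPKM was 11.2 ± 0.92 in H196_Mo and 11.5 ± 0.13 in H196_Co (SD, n = 3), with 71.6% ± 1.38 and 75.2% ± 1.86 from SESN2.

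Whether the lines responded differently was tested as the difference of both responses, MRC5 to H196 minus H196 to MRC5, in 1 model of all 15 libraries. 5 of the 9 members tested differed past both limits, and all 5 were higher on the fibroblast side, where 24.7% of the 13585 genes tested differed and 12.1% were higher. Without the fold limit 8 of 9 differed, against 51.2% of genes. The difference was 1.39 for FNIP1 (SE 0.12, adjusted p = 1.51e-10), 0.96 for RRAGC (0.096, 3.58e-09), 0.95 for DDIT4 (0.11, 2.50e-08) and 0.76 for SESN3 (0.16, 0.000175), all on the log2 scale. DDIT4 rose in both lines, and the responses of RRAGC had opposite signs. The fitted difference of RRAGD was 3.30 (adjusted p = 6.07e-06), which rests on the 4 counts of MRC5_Mo and was -0.17 (adjusted p = 0.123) on log2(FPKM + 1), where low levels weigh little. SESN1 (0.46, adjusted p = 0.00977, and 0.58 and past the limit without H196_Mo replicate 3), SESN2 (0.28, adjusted p = 0.0171) and RPTOR (-0.36, adjusted p = 0.00420) were under the fold limit, and DEPTOR had -0.44 with an interval from -1.50 to 0.62.

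In mono-culture, 6 of the 9 members differed between H196 and MRC5 cells, where 61.7% of 13585 genes did. Of them 3 were higher and 3 lower in H196_Mo, against 31.5% and 30.2% of genes, all 9 passed without the fold limit, against 86.6%, and all 9 were separate in CPM, against 87.6%. Without the TMM scaling RRAGC and RPTOR overlapped in CPM. Any difference in how the lines were grown or prepared cannot be told apart from the line. RRAGD held 1927 counts in H196_Mo against 4 in MRC5_Mo, a ratio of 533 per count total (95% exact interval 208 to 1960). DDIT4 was higher in H196_Mo by 1.99 and DEPTOR by 1.31 on the log2 scale, and SESN1, SESN3 and SESN2 were lower, with log2 fold changes of -1.40, -1.23 and -1.06 (adjusted p = 0.00121 for DEPTOR and lower for the others, edgeR). On log2(FPKM + 1), where the median of all genes was 0.34, SESN2 (-0.56), SESN3 (-0.50) and DEPTOR (0.50) were under the limit. RRAGC (-0.38) and RPTOR (-0.40) were under the limit and turned sign on the FPKM scale, to 0.059 and 0.032 with 0.1 FPKM added, where the median of all genes was 0.45. FNIP1 had 0.58, just under the limit, and was a DEG on log2(FPKM + 1) (0.87) and log2(FPKM + 0.1) (1.004), in DESeq2 or with its size factors (0.59), with 10 counts required in every library (0.61) and without any 1 of MRC5_CoH196 replicates 1 to 3, MRC5_Mo replicate 2 or H196_Mo replicates 2 and 3 (0.60 to 0.63).

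The order of levels within a group, compared per length in FPKM, was led by DDIT4 in all 5 groups. In MRC5_Mo it was followed by RRAGC at 15.3 ± 0.40, which its SD of 1.67 around 16.8 does not set apart, then SESN2 at 12.2 ± 0.71, RPTOR at 9.54 ± 0.33, FNIP1 at 4.17 ± 0.11, SESN1 at 3.80 ± 0.22, SESN3 at 2.28 ± 0.20 and DDIT4L at 2.19 ± 0.10 (SD, n = 3), of which the last 2 overlapped. In MRC5_CoH196 FNIP1, at 8.36 ± 0.16, stood above RPTOR, at 6.35 ± 0.25, the reverse of their order in MRC5_Mo. In H196_Co RRAGC (11.4 ± 0.87) and RRAGD (11.3 ± 0.67) overlapped behind DDIT4.

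The genes whose pattern was most like a member's were found by Pearson's r over the 15 libraries, with the mean of each cell line subtracted, among 9792 other genes with a mean of at least 10 CPM. For DDIT4 they were ALKBH5 (r = 0.997), CLK3 (0.996) and PGK1 (0.995), the last a glycolytic enzyme. For RRAGD they were GOLGA8B (0.977), UAP1L1 (0.977) and PLA2G12A (0.974), and in MRC5 the RRAGD side of this rests on at most 21 counts per library. The 15 points share the libraries, their scaling and the group differences, so these are descriptions.

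Of 72 other genes of the mTORC1 pathway tested in MRC5_CoH196 cells, 9 were higher and 5 lower DEGs, a total of 14 beside the 31.9% background, with a median log2 fold change of -0.0094. In H196_Co cells 2 were higher and 1 lower of 72, beside 3.86%, and in MRC5_CoH69 cells none was a DEG, beside 0.554%. The lists were chosen with results of these data known. The other Rag, Ragulator and SLC38A9 genes, which anchor the Rag GTPases on the lysosome, held 0 DEGs of 8 in both co-cultures with the non-NE line. RRAGA had log2 fold changes of 0.20 (adjusted p = 0.000301) in MRC5_CoH196 and 0.0092 (adjusted p = 0.945) in H196_Co, and RRAGB -0.11 (0.249) and -0.066 (0.760).

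Of 10 other subunits of mTORC1 and mTORC2, 2 were higher and 3 lower DEGs in MRC5_CoH196 cells, beside 17.2% higher and 14.7% lower DEGs of all genes. None was a DEG in H196_Co cells, beside 3.86% of all genes. The higher genes were PRR5L (1.76 on the log2 scale, SE 0.14, adjusted p = 1.84e-11) and RICTOR (1.22, 0.065, 1.09e-14), the defining subunit of mTORC2, to which PRR5L also binds. The lower genes were TELO2 (-1.08, adjusted p = 5.34e-14), which assembles both complexes, the kinase MTOR itself (-0.72, adjusted p = 1.06e-12) and AKT1S1 (-0.64, adjusted p = 7.45e-11), an inhibitory mTORC1 subunit named here after its value was seen. Beside them RPTOR, the mTORC1 subunit among the members, had -0.42. The difference of the responses passed both limits for RICTOR (1.45, adjusted p = 2.40e-10), PRR5L, TELO2 and AKT1S1, and MTOR had -0.51 (adjusted p = 2.96e-06), under the fold limit.

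The fold changes of FLCN had the signs of those of FNIP1 in both lines. Its log2 fold change was 0.88 in MRC5_CoH196 and -0.27 (adjusted p = 0.0192, under the limit) in H196_Co, with a difference of 1.11 (SE 0.092, adjusted p = 1.20e-10). FNIP2 had 0.53 and -0.25 (adjusted p = 0.0375), with a difference of 0.75 (adjusted p = 3.83e-07). In H196_Co TFE3 (0.34, adjusted p = 0.00185) and TFEB (0.45, adjusted p = 0.0449) had the opposite sign, both under the fold limit. Their differences of the responses were -0.35 (adjusted p = 0.000168) and -0.48 (adjusted p = 0.0740). Of 15 MiT/TFE target genes other than members, 3 were higher and 1 lower DEGs in MRC5_CoH196, beside 31.9%, namely GPNMB (0.92, adjusted p = 1.56e-07), TPP1 (0.64), HEXA (0.63) and ATP6V0D1 (-0.74, adjusted p = 2.75e-12). None of 14 was a DEG in H196_Co, beside 3.86%. HEXA was named after its value was seen.

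The counts that follow stand beside 31.9% DEGs and 17.2% higher DEGs among all genes in MRC5_CoH196, and 3.86% and 3.26% in H196_Co. Upstream of the Rag GTPases, the GATOR2 genes held 2 lower DEGs of 5 in MRC5_CoH196, SEH1L (-0.90, adjusted p = 2.12e-11) and SEC13 (-0.70, adjusted p = 8.83e-13), GATOR1 and KICSTOR 0 of 7, and the amino acid sensors 0 of 4. In H196_Co the GATOR lists held 0 DEGs, and the arginine sensor CASTOR1 was higher (0.86, adjusted p = 0.00203). The TSC and RHEB genes held 0 DEGs of 4 in MRC5_CoH196, with TSC2 at -0.095 (adjusted p = 0.0785) and RHEB at 0.24 (adjusted p = 3.48e-05), and 1 of 5 in H196_Co, RHEBL1 (0.62, adjusted p = 0.00261). Of 18 growth factor and energy genes 5 were higher DEGs in MRC5_CoH196, led by IRS2 (2.1, adjusted p = 2.43e-19) and the AMPK subunit PRKAA2 (1.31, adjusted p = 6.95e-10), and none of 17 was in H196_Co. Of 11 mTORC1 substrates and effectors EIF4EBP1 was higher in MRC5_CoH196 (0.66, adjusted p = 3.35e-10) and LPIN1 lower in H196_Co (-0.58, adjusted p = 3.31e-05).

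The last lists hold targets of factors known to act on the members, and their counts stand beside the same shares, 31.9% DEGs and 17.2% higher DEGs of all genes in MRC5_CoH196 and 3.86% and 3.26% in H196_Co. All 10 hypoxia-response genes were higher DEGs in MRC5_CoH196 with a median of 3.27, and 8 of the 8 tested in H196_Co with a median of 1.28, led by CA9 (7.06) and EGLN3 (6.07) in fibroblasts and ANKRD37 (3.23) and ADM (1.83) in tumor cells. Of 10 genes on the ATF4 list, which holds ATF4 itself, 8 were higher DEGs in MRC5_CoH196 (median 0.83) and 7 in H196_Co (median 0.74). ATF4 was among the 8 (0.82) and not among the 7 (0.15, edgeR adjusted p = 0.140). In MRC5_CoH196 1 of the 10 was lower at an adjusted p under 0.05, under the fold limit. VLDLR (2.55) and CHAC1 (1.74) led in MRC5_CoH196, and CHAC1 (0.96) and VLDLR (0.90) in H196_Co. FOXO targets other than SESN3 held 8 higher DEGs of 10 in MRC5_CoH196 (median 1.38), among them KLHL24 (2.40), IRS2 (2.1) and BCL6 (1.68), and 0 of 8 in H196_Co (median 0.14). The p53 targets were mixed in MRC5_CoH196, with 4 higher DEGs, among them GDF15 (1.91), and 2 lower, among them TP53I3 (-1.45), of 10, and 0 of 9 were DEGs in H196_Co. In MRC5_CoH69 none of these 4 lists held a DEG, beside 0.554% of all genes. At an adjusted p under 0.05 with no fold limit, which 6.7% of all genes passed, 5 of 10 hypoxia-response genes were higher, 3 of 10 FOXO targets higher and 2 lower, 1 of 10 genes on the ATF4 list lower and 0 of 10 p53 targets either.

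**Figure D4:**
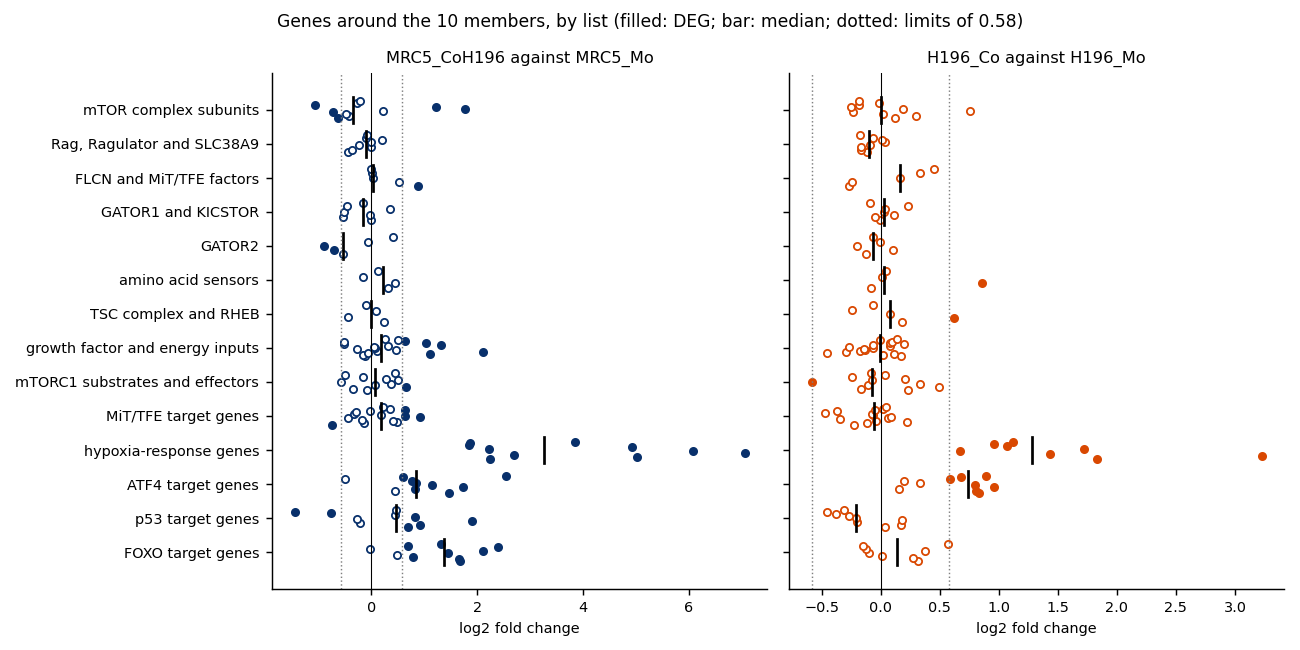
Log2 fold changes (horizontal axis, with a scale of its own in each panel) of the genes in 14 lists around the members, in MRC5_CoH196 and in H196_Co cells against the mono-culture of the same line; points are genes, filled points are DEGs and the vertical bar is the list's median. The medians of the hypoxia-response genes, 3.27 and 1.28, lie farthest to the right in both panels, those of the FOXO target genes are 1.38 and 0.14, and those of the Rag, Ragulator and SLC38A9 genes are -0.095 and -0.10.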

How the data were processed

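The libraries are oligo(dT)-selected RNA of MRC5 and H196 cells, read on a BGIseq-500. SOAPnuke filtering, HISAT alignment to GRCh38.p13 and Bowtie2 alignment to gene sequences were done by the authors, and the submitters' processing notes name HISAT2 2.1.0, Bowtie2 2.3.4.3 and RSEM 1.3.1. The expected counts the authors deposited are not normalized, and 93.7% (MRC5) and 92.1% (H196) were whole. The authors scaled FPKM by gene length and library total and deposited them to 2 decimals, in 1 table per line. Columns with the authors' own fold changes and p-values, further per-library columns (18 for MRC5, 12 for H196) and an identical copy of each table were not used.

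Rounded expected counts were fitted in R 4.3.3 with edgeR 4.0.16 (TMM, filterByExpr, two-sided quasi-likelihood test) for the 9 MRC5, the 6 H196 and all 15 libraries. An SE is the log2 fold change over the root of F. Ratios of FPKM had 0.01 added where a library was at 0. Alternatives were DESeq2 1.42.0, limma 3.58.1 on FPKM, other filters and fold limits, a replicate block, fits of the compared groups alone, and each library left out. In simulated data for MRC5_CoH196 against MRC5_Mo edgeR recovered 200 of 200 changed genes, with 2 false calls among 12755 genes. Members, lists and naming rule were chosen with earlier results of these data known. Of each list the text names at most the 3 DEGs of MRC5_CoH196 and the 2 of H196_Co with the largest change, plus MTOR, RRAGA, RRAGB, FLCN, FNIP2, TFEB, TFE3, MITF, TSC2 and RHEB, and, outside this rule and after their values were seen, AKT1S1, HEXA and ATF4. A gene that this rule would name is not reported here.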

Additional observations from a re-analysis of the deposited data

Results flagged for a closer look

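The responses of the lines differed past both limits for 5 of the 9 members tested, by the test of the difference itself in the 15-library model (edgeR). Of all 13585 genes tested 24.7% differed and 12.1% were higher. The difference, MRC5 to H196 minus H196 to MRC5 on the log2 scale, was 0.95 for DDIT4, which rose in both lines. It was 1.39 for FNIP1 and 0.76 for SESN3, which were DEGs in MRC5_CoH196 and not in H196_Co. It was 0.96 for RRAGC, which was 0.59 in MRC5_CoH196 and -0.40 in H196_Co. It was 3.30 for RRAGD, where MRC5_Mo held 4 counts in all, and -0.17 on log2(FPKM + 1). RRAGD meets the rule for a marker of H196 RNA. No group had the 4 libraries needed to look for a library far from the others.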

How the results depend on the processing

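The number of members called DEGs in MRC5_CoH196 against MRC5_Mo, 5, became 2 on log2(FPKM + 1), where 2997 of 12819 genes were DEGs. It became 9 with no fold limit, against 74.3% of genes, and 3 with a limit of 1. Against MRC5_CoH69, 6 became 2 on log2(FPKM + 1), where 2567 of 12819 genes were DEGs, and 3 with a limit of 1. In H196_Co, 1 became 3 with no fold limit, against 19.8% of genes, and 1 to 2 when a library was left out. It was 2 without H196_Co replicate 3, where 455 of 12893 genes were DEGs, and without H196_Mo replicate 1, where 424 of 12915 were. For the difference of the responses, 5 became 3 on log2(FPKM + 1), where 2382 of 13585 genes differed. It became 8 with no fold limit, against 51.2% of genes, and 2 with a limit of 1. All genes were not counted at a limit of 1. The other settings moved no such count by over 1.5 times. With 0.1 FPKM added, the difference of the log2 ratio of RRAGD to RRAGC was 1.07 for MRC5_CoH196 against MRC5_Mo, -0.13 for MRC5_CoH69 against MRC5_Mo and 1.20 for MRC5_CoH196 against MRC5_CoH69, and 4.81 for the last on counts, since RRAGD is at or near 0 in MRC5.

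Single fold changes that changed sign were not past the limits, apart from the RRAGD difference of the responses (-0.17 on log2(FPKM + 1)). Against H196_Mo, SESN3 in H196_Co was -0.045 and -0.026 on log2(FPKM + 0.1) and log2(FPKM + 1), and -0.074 to 0.14 with a library left out. In H196_Mo against MRC5_Mo, RRAGC was 0.059 and 0.056 and RPTOR 0.032 and 0.030 on these scales. In MRC5_CoH69 against MRC5_Mo, SESN3 was -0.000313 with DESeq2 size factors, -0.00050 in DESeq2, -0.0097 and -0.0071 on the FPKM scales and -0.041 to 0.080 with a library left out, RRAGC -0.090 to 0.0069 and DEPTOR -0.084 to 0.55. With a library left out DEPTOR was -0.82 to 0.31 in MRC5_CoH196 against MRC5_Mo, -1.12 to 0.020 against MRC5_CoH69 and -1.07 to 0.063 in the difference of the responses.

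Same-numbered libraries did not deviate together (r of -0.15 to 0.081 over 12 pairs, own number highest in 2). With 3 libraries per group this cannot show whether they were prepared together, which the labels do not say. With a replicate block the counts of called members were 5, 0, 6, 1, 5 and 6 for MRC5_CoH196 against MRC5_Mo, MRC5_CoH69 against MRC5_Mo, MRC5_CoH196 against MRC5_CoH69, H196_Co against H196_Mo, the difference of the responses and H196_Mo against MRC5_Mo, as without it. Of all genes tested 4088, 70, 3612, 471, 3327 and 8374 were called with the block, in the same order. Depth limits RRAGD in MRC5 and DEPTOR, with at most 21 and 37 counts in a library.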

Other observations

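SESN1's pattern over the 15 libraries was most like that of CEP57L1 (r = 0.865, the first of 9792 genes, mean of each line subtracted). In the tables' coordinates CEP57L1 covers 109095153 to 109174418 on chromosome 6, with 306 bases between it and the boundary of SESN1 at 109094846. A RefSeq promoter window of SESN1, on the minus strand, covers 109094847 to 109095096, so this boundary is a start site of SESN1. The pair was chosen after its values were seen, the 15 points share libraries and scaling, and shared reads between the neighbors were not tested.

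Among the members, the highest correlation over the libraries was that of SESN2 with RRAGD (r = 0.94) and the lowest that of SESN3 with RPTOR (r = -0.84), with each line's mean subtracted, as a description of libraries that share their groups.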
